A study of Sus scrofa domesticus with 34 samples.

Results

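The genes described here are 6 transcripts that neurons use to build and run axons and synapses: SNAP25, SYT1, SLC17A7, STMN2, L1CAM and SULT4A1. They were chosen by name and matched by Ensembl identifier to the 31907 genes in the count files, and all 6 were among the 13974 genes that passed the expression filter. The identifiers are ENSSSCG00000026985 for SNAP25, ENSSSCG00000000948 for SYT1, ENSSSCG00000003170 for SLC17A7, ENSSSCG00000006160 for STMN2, ENSSSCG00000012787 for L1CAM and ENSSSCG00000000026 for SULT4A1. Expression was measured by 3′ mRNA sequencing (QuantSeq), which samples each polyadenylated transcript by a single fragment close to its 3′ end, in 34 libraries from pigs (Sus scrofa domesticus), 1 library per animal, all labelled muscle. The labels give the diet and the sex of each animal but no age.

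The diets differed in vitamin D. The control diet, standard cholecalciferol, held cholecalciferol (vitamin D3) at 2000 IU per kg of grower feed and 1500 IU per kg of finisher feed (n = 8, 4 females and 4 castrated males). Increased cholecalciferol held 3000 and 2500 IU (n = 10, 6 females and 4 castrated males). The combination diet held 2000 and 1500 IU of cholecalciferol with 1000 IU of 25(OH)D in both feeds (n = 8, 4 of each sex). The 25(OH)D diet replaced cholecalciferol by 2000 and 1500 IU of 25(OH)D, the hydroxylated form also called calcidiol (n = 8, 4 of each sex). No group was without vitamin D.

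Neurons release transmitter when a vesicle fuses with the membrane of the nerve ending. SNAP25 is a membrane protein of the SNARE complex that drives this fusion, SYT1 (synaptotagmin 1) is the calcium sensor that triggers it, and SLC17A7 (VGLUT1) loads vesicles with glutamate in neurons of the cerebral cortex, the hippocampus and the cerebellum. STMN2 is a tubulin-binding protein of growing and regenerating axons, L1CAM is an adhesion molecule that guides axons, and SULT4A1 is a brain-enriched member of the sulfotransferase family with no settled substrate. The set is thus wider than the synapse, and SLC17A7 marks glutamatergic neurons rather than all neurons. In skeletal muscle, nerve fibres hold little mRNA, since the cell bodies of motor neurons lie in the spinal cord.

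Total gene counts ran from 1.34 to 30.4 M per library, with a median of 6.67 M. They followed the running numbers in the file names: the libraries of numbers 1 to 24 had 4.08 to 13.2 M, those of 25 to 29 had 16.8 to 30.4 M, and those of 30 to 34, which are 4 combination libraries and 1 25(OH)D library, had 1.34 to 2.69 M. Numbers 25 to 29 are 3 standard cholecalciferol libraries, 1 increased cholecalciferol library and 1 combination library, with none of 25(OH)D. The sources used here do not say what these numbers stand for. The muscle label was checked against markers. Skeletal muscle actin, ACTA1, was 482 to 4026 counts per 1 M gene counts (CPM), the oligodendrocyte gene MBP was 1314 to 8483 CPM and the astrocyte gene GFAP was 739 to 4637 CPM. Of 20 skeletal muscle markers, 14 were found by symbol and 13 had counts in every library. Every library therefore held transcripts of muscle and of brain cells, and the 6 genes are described for the libraries as labelled.

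The 6 genes were abundant. Their levels are given as CPM of total gene counts, and since 3′ reads do not scale with transcript length, levels can be set side by side between genes as far as their 3′ ends are equally well annotated. STMN2 had a mean of 1560 ± 508 CPM and SNAP25 of 1413 ± 583 CPM (SD, n = 34), which ranked 30 and 32 among all genes. SYT1 followed with 885 ± 263 CPM, SLC17A7 with 314 ± 85.9 CPM, SULT4A1 with 254 ± 41.0 CPM and L1CAM with 51.6 ± 19.4 CPM. STMN2 exceeded SNAP25 in only 18 of 34 libraries, so that these neighbours were not separable beyond their spread. SNAP25 exceeded SYT1 in 32 libraries, SLC17A7 exceeded SULT4A1 in 30, and SYT1 exceeded SLC17A7, as SULT4A1 exceeded L1CAM, in all 34. The lowest count behind any of these values was 65 reads, for L1CAM.

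The genes varied to different degrees from animal to animal. The SD of log2(CPM + 0.5) over the 34 libraries was 0.61 for SNAP25 and 0.58 for L1CAM, 0.43 for STMN2, 0.41 for SYT1 and 0.36 for SLC17A7, beside a median of 0.51 over all genes tested. SULT4A1 had an SD of 0.22, and 1.72% of the genes tested had a smaller one. Among the tested genes above 100 CPM the median SD was 0.32, so that the level of SULT4A1 was steady also for an abundant gene.

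SNAP25, the SNARE protein, was read at every diet over a wide range. In standard cholecalciferol it ranged from 664 to 2675 CPM with a median of 1227 (mean 1399 ± 603, SD, n = 8). Increased cholecalciferol gave 885 to 3008 CPM with a median of 1636 (mean 1676 ± 630, n = 10). The combination gave 1010 to 2722 CPM with a median of 1312 (mean 1441 ± 532, n = 8). In the combination the highest value was a single library, combination 1, well above the next at 1407 CPM. In 25(OH)D the range was 369 to 1612 CPM and the median 1075 (mean 1072 ± 461, n = 8). The 4 groups overlapped, and the lowest library of all was in the 25(OH)D group.

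SYT1, the calcium sensor, had the same 3 libraries at the top as SNAP25 and the same 2 at the bottom. Standard cholecalciferol gave 558 to 1474 CPM with a median of 857 (mean 916 ± 299, n = 8). Increased cholecalciferol gave 640 to 1634 CPM with a median of 890 (mean 978 ± 293, n = 10). The combination diet gave 795 to 1416 CPM with a median of 861 (mean 927 ± 205, n = 8). The medians of these 3 diets lay close together. With 25(OH)D, SYT1 was 470 to 941 CPM with a median of 712 (mean 695 ± 166, n = 8), again overlapping every other diet.

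SLC17A7, the glutamate carrier of vesicles, was more even. It was 258 to 417 CPM in standard cholecalciferol, with a median of 306 (mean 321 ± 47.7, n = 8). It was 266 to 672 CPM in increased cholecalciferol, with a median of 317 (mean 364 ± 119, n = 10). Here 1 library alone, increased cholecalciferol 7, lay above all others (libraries are numbered within a diet in accession order). The combination gave 158 to 418 CPM with a median of 274 (mean 285 ± 75.7, n = 8), and 25(OH)D gave 174 to 335 CPM with a median of 280 (mean 275 ± 49.2, n = 8). All 4 ranges overlapped.

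STMN2, the axonal tubulin regulator, differed little between diets. The range was 951 to 2403 CPM in standard cholecalciferol, with a median of 1397 (mean 1589 ± 538, n = 8). In increased cholecalciferol it was 1019 to 3202 CPM with a median of 1416 (mean 1560 ± 600, n = 10). In the combination it was 1100 to 2490 CPM with a median of 1623 (mean 1684 ± 425, n = 8). The combination had the highest median and increased cholecalciferol the highest library. In 25(OH)D it was 943 to 2358 CPM with a median of 1206 (mean 1406 ± 490, n = 8), within the range of the others but for its lowest library.

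L1CAM, the adhesion molecule, had the widest relative spread in 25(OH)D. Standard cholecalciferol gave 28.9 to 93.8 CPM with a median of 55.8 (mean 54.1 ± 20.3, n = 8). Increased cholecalciferol gave 41.9 to 104.5 CPM with a median of 56.2 (mean 58.3 ± 17.8, n = 10). The combination gave 36.1 to 89.0 CPM with a median of 50.1 (mean 55.4 ± 18.6, n = 8). The medians of these 3 groups differed by less than the SD of any of them. In 25(OH)D L1CAM was 13.4 to 62.7 CPM with a median of 34.6 (mean 36.8 ± 16.1, n = 8), so that its median lay below the lowest library of increased cholecalciferol and of the combination.

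SULT4A1, the sulfotransferase, was nearly level. It was 200 to 326 CPM in standard cholecalciferol (median 253, mean 260 ± 44.5, n = 8) and 206 to 389 CPM in increased cholecalciferol (median 253, mean 267 ± 53.3, n = 10). In the combination it was 208 to 260 CPM (median 239, mean 235 ± 19.0, n = 8), and in 25(OH)D 221 to 317 CPM (median 234, mean 250 ± 34.9, n = 8). The groups overlapped over most of their ranges.

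**Figure D1:**
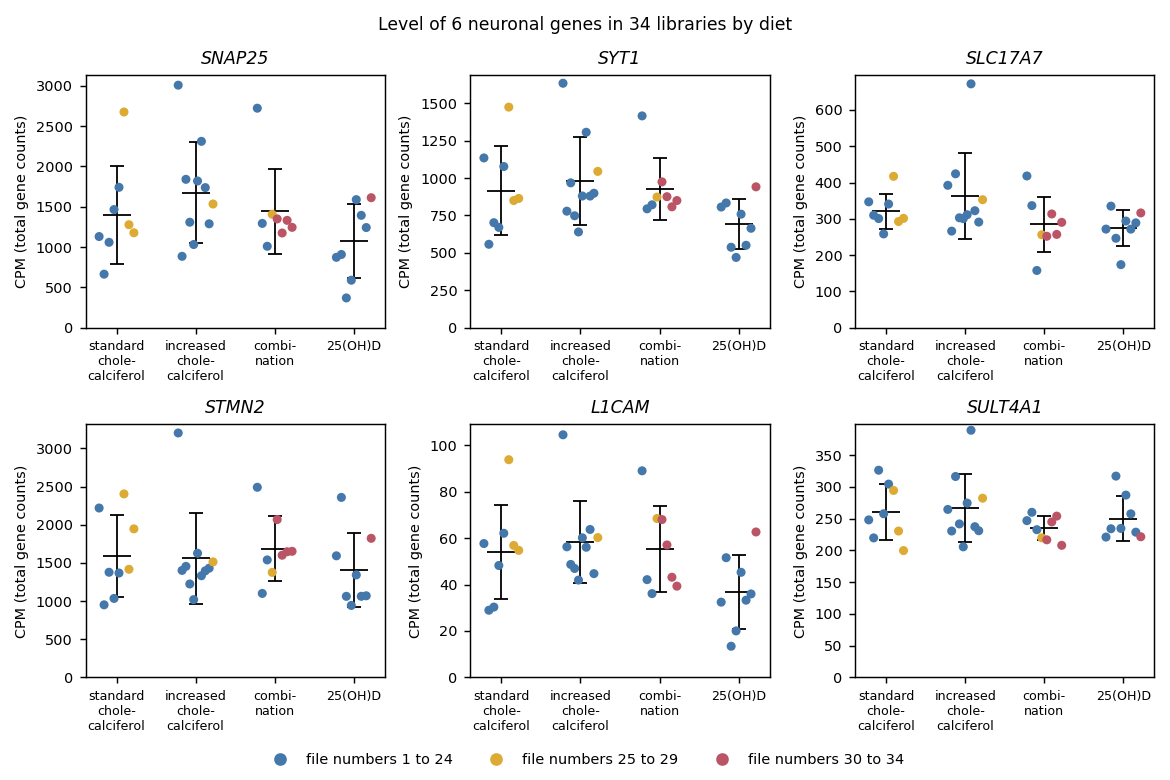
Level of each gene in CPM of total gene counts (vertical axis, from 0) in the 34 libraries by diet, 1 point per library coloured by the running number of its file, with the mean and SD of each diet in black. The 4 diets overlap for every gene. The mean of 25(OH)D is the lowest of the 4 for every gene but SULT4A1, with 1072 CPM for SNAP25, 695 for SYT1 and 36.8 for L1CAM.

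Whether the diets changed the 6 genes was tested with edgeR's quasi-likelihood test over all 34 libraries, with sex in the model and Benjamini-Hochberg adjustment over all genes tested. None of the 6 genes passed an adjusted p of 0.05 in any of the 6 comparisons of diets, which share groups with each other, and none of all genes tested did either (background 0% in each of the 6). The counts of the 6 genes at an unadjusted p below 0.05 were 0 for increased against standard cholecalciferol (7.77% of all genes tested), 0 for the combination against standard (4.34%) and 2 for 25(OH)D against standard (3.23%). They were 1 for the combination against increased cholecalciferol (4.14%), 3 for 25(OH)D against increased (12%) and 2 for 25(OH)D against the combination (7.57%). DESeq2 and limma-voom also called none of the 6 genes. In bulk RNA, fewer cells of a type and less RNA per cell cannot be told apart.

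The lowest p-values were those of 25(OH)D. For L1CAM the log2 difference of 25(OH)D from increased cholecalciferol was -0.61 (SE 0.20, 95% interval -1.02 to -0.20, edgeR p = 0.00454, adjusted p = 0.306). From the combination it was -0.59 (SE 0.21, interval -1.02 to -0.16, edgeR adjusted p = 0.653) and from standard cholecalciferol -0.54 (SE 0.21, interval -0.96 to -0.11, edgeR adjusted p = 1.00). The difference of L1CAM from standard cholecalciferol was -0.29 with the 3 runs of file numbers in the model and -0.31 with a term for depth. These 3 values share the 25(OH)D libraries and are not independent of each other. For SNAP25 the difference from increased cholecalciferol was -0.53 (SE 0.22, interval -0.97 to -0.09, edgeR adjusted p = 0.345), and for SYT1 it was -0.38 (SE 0.14, interval -0.67 to -0.09, edgeR adjusted p = 0.321). The lowest 25(OH)D libraries for these genes were 25(OH)D 3 and 25(OH)D 4. Without 25(OH)D 3 the difference was -0.51 for L1CAM and -0.43 for SNAP25.

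Against standard cholecalciferol, the control, the differences for 25(OH)D were -0.33 for SNAP25 (SE 0.23, interval -0.79 to 0.13), -0.32 for SYT1 (SE 0.15, interval -0.62 to -0.02) and -0.17 for SLC17A7 (SE 0.15, interval -0.49 to 0.14). These values moved with the model. With the 3 runs of file numbers as a term SNAP25 was -0.13 and SYT1 -0.18, and with a term for depth SNAP25 was -0.12, SYT1 -0.16 and SLC17A7 -0.09. STMN2 stood at -0.11 (SE 0.18, interval -0.47 to 0.24) and SULT4A1 at 0.02 (SE 0.14, interval -0.26 to 0.30). For increased cholecalciferol the 6 differences from the control lay between -0.07 for STMN2 and 0.20 for SNAP25, and for the combination between -0.22 for SLC17A7 and 0.08 for SNAP25. For SNAP25 the interval of increased cholecalciferol against the control was -0.24 to 0.63, which holds 0. The median over the 6 genes was 0.06 under increased cholecalciferol, 0.03 under the combination diet and -0.25 under 25(OH)D, beside medians over all genes of 0.01, 0.00 and -0.01. Between increased cholecalciferol and the combination, SLC17A7 had the only unadjusted p below 0.05, with a difference of -0.32 for the combination (SE 0.15, interval -0.62 to -0.02, edgeR adjusted p = 0.931). Without increased cholecalciferol 7, the library highest for SLC17A7, it was -0.21, and within file numbers 1 to 24 it was -0.19.

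**Figure D2:**
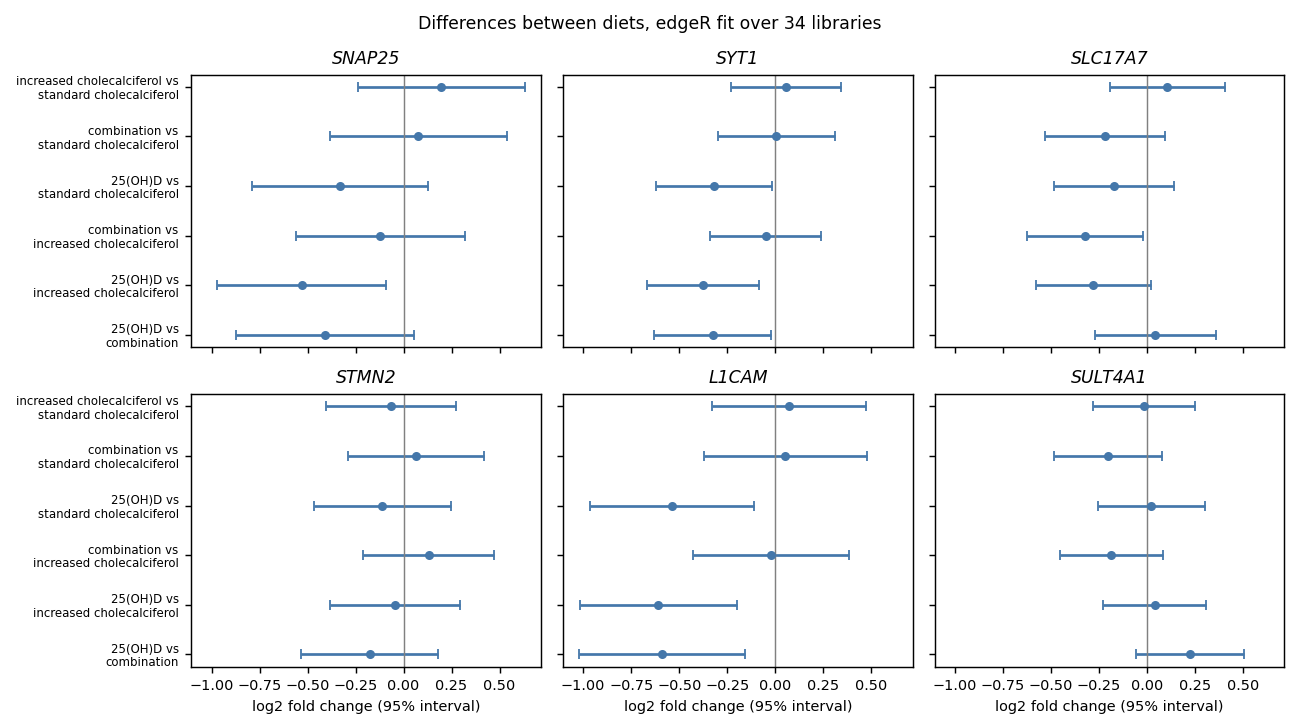
Log2 fold change of each gene between diets (horizontal axis) with its 95% interval from the edgeR fit over 34 libraries, 1 row per comparison. The intervals of SULT4A1 and STMN2 include 0 in all 6 comparisons, and L1CAM lies between -0.61 and -0.54 in the 3 comparisons of 25(OH)D.

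Other properties of the libraries moved with these levels. The share of counts in mitochondrially encoded protein genes was 19.2 to 39.7% in 25(OH)D (median 25.6%), 14.4 to 36.6% in standard cholecalciferol (median 22.3%), 14.2 to 27.8% in increased cholecalciferol (median 22.1%) and 16.9 to 24.3% in the combination (median 20.5%). In 25(OH)D 3 and 25(OH)D 4, which had the lowest SNAP25 and L1CAM of all libraries, that share was 39.7% and 35.4%. A high share did not always go with low levels. Standard cholecalciferol 4 had a share of 36.6%, above that of 25(OH)D 4, with SNAP25 at 1465 CPM and L1CAM at 48.2 CPM. In increased cholecalciferol 1, combination 1 and standard cholecalciferol 6, the 3 libraries with the highest SNAP25, SYT1, STMN2 and L1CAM, it was 14.2%, 17.4% and 14.4%. The summed level of the skeletal muscle markers overlapped between diets as well, at 1545 to 6289 CPM in standard cholecalciferol, 2057 to 5338 CPM in increased cholecalciferol, 2599 to 8823 CPM in the combination and 2682 to 7689 CPM in 25(OH)D. The part of these properties in the differences between diets was not tested, other than by a term for the muscle markers, with which L1CAM in 25(OH)D against increased cholecalciferol was again -0.61.

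The mitochondrial share was compared with the 6 genes after their levels had been seen. SYT1 (r = -0.79), STMN2 (r = -0.79), L1CAM (r = -0.77) and SNAP25 (r = -0.65) were lower where that share was higher (adjusted permutation p at most 0.000105 over 6 relations). Spearman's rho was -0.74 for SYT1, -0.84 for STMN2, -0.64 for L1CAM and -0.36 for SNAP25, and without the 2 libraries farthest from the median share r was -0.80, -0.82, -0.77 and -0.62. Within file numbers 1 to 24 r was -0.78, -0.76, -0.77 and -0.64. A share of total counts enters CPM itself, and with TMM-scaled library sizes, which depend less on a few abundant genes, r was -0.60 for SYT1, -0.63 for STMN2, -0.65 for L1CAM and -0.50 for SNAP25. By rho SNAP25 did not pass on that scaling (-0.23, adjusted permutation p = 0.231). SLC17A7 had r = -0.33 (adjusted permutation p = 0.0689) and 0.00 with TMM scaling. Its rho on total counts was -0.39 and passed (adjusted permutation p = 0.0361). SULT4A1 stood apart with r = 0.12, and 0.55 with TMM scaling, which passed (adjusted permutation p = 0.00108). The log2 ratio of TMM-scaled to total library size itself had r = -0.86 with the mitochondrial share. The part of this ratio in the values with TMM scaling was not tested.

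Females and castrated males were compared in the same fit, with diet in the model. None of the 6 genes passed the threshold, beside 0.0787% of all genes. The difference was above 0 for all 6 genes, as for 51.2% of all genes. Some marker lists leaned to one side as well: all 11 tested cerebellar genes were above 0 (median 0.37) and all 9 oligodendrocyte (median -0.42) and all 9 microglial genes (median -0.19) below 0, none of them past the threshold. Other lists were mixed: forebrain genes were 5 above and 5 below 0, astrocyte genes 2 and 6, and endothelial genes 2 and 4. Skeletal muscle genes were 3 above and 11 below 0, and liver genes 5 and 1. Their part in the differences between the sexes was not tested. SNAP25 was 908 to 3008 CPM in the 18 females (median 1429) and 369 to 2722 CPM in the 16 castrated males (median 1210), with broad overlap. Its difference was 0.42 (SE 0.16, interval 0.10 to 0.74, edgeR adjusted p = 0.678), and that of L1CAM was 0.30 (SE 0.15, interval 0.00 to 0.59, edgeR adjusted p = 0.742), or 0.45 with a term for depth. These 2 were the members at an unadjusted p below 0.05, a level that 6.58% of all genes reached. The differences for SYT1, STMN2 and SLC17A7 were 0.20, 0.19 and 0.19, and that for SULT4A1 was 0.08 (interval -0.11 to 0.28). The lowest libraries for SNAP25 and L1CAM, 25(OH)D 3 and 25(OH)D 4, both came from castrated males.

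Across the 34 libraries SNAP25, SYT1, STMN2 and L1CAM were high in the same animals. Of the 15 pairs, 10 had a Pearson r of log2(CPM + 0.5) with an adjusted permutation p below 0.05. The tightest were SNAP25 with L1CAM (r = 0.85, rho = 0.71) and SYT1 with L1CAM (r = 0.85, rho = 0.84). SYT1 with STMN2 had r = 0.81 (rho = 0.74) and SNAP25 with SYT1, the SNARE protein and its calcium sensor, r = 0.80 (rho = 0.69). Without the 2 farthest libraries these r were 0.75, 0.80, 0.74 and 0.76, and within file numbers 1 to 24 they were 0.87, 0.84, 0.81 and 0.78. The points share library depth and the composition of each library, so that a common factor of scale is part of every r. With TMM-scaled library sizes 8 pairs passed: SNAP25 with STMN2 went from 0.52 to 0.36 and SLC17A7 with L1CAM from 0.52 to 0.36, both past the threshold before and not after. On total counts the rho of SNAP25 with STMN2 was 0.32 and did not pass (adjusted permutation p = 0.0854).

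SULT4A1 did not follow this pattern. Its r was -0.05 with STMN2, -0.03 with L1CAM, 0.26 with SYT1 and 0.27 with SNAP25. The only pair of it past the threshold by r was that with SLC17A7 (r = 0.51, rho = 0.42, adjusted permutation p = 0.00340), where both genes were highest in increased cholecalciferol 7, and r was 0.32 without the 2 farthest libraries. With SNAP25 the rank correlation was larger than r (rho = 0.44, adjusted permutation p = 0.0173), and r rose to 0.52 without the 2 farthest libraries, so that single libraries moved this value. SLC17A7 had r = 0.66 with SYT1, 0.63 with SNAP25 and 0.52 with L1CAM, and 0.34 with STMN2 (adjusted permutation p = 0.0669).

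**Figure D3:**
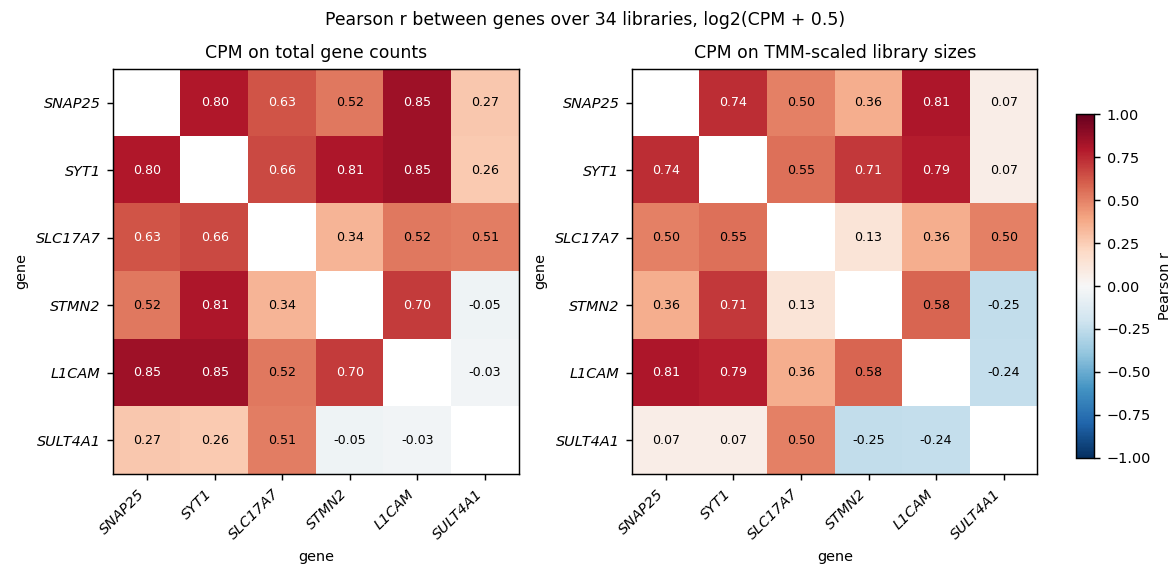
Pearson r of log2(CPM + 0.5) between each pair of the 6 genes over 34 libraries, on total gene counts (left) and on TMM-scaled library sizes (right), with the colour scale from -1 to 1. On the left, SNAP25, SYT1, STMN2 and L1CAM have r from 0.52 to 0.85 with each other. SLC17A7 has r of 0.66 with SYT1 and 0.63 with SNAP25 there. SULT4A1 is pale against STMN2 and L1CAM with r of -0.05 and -0.03.

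The genes most like each member over the 34 libraries differed from member to member. SNAP25 had its closest likeness to PGBD5 (r = 0.93), derived from a transposase, and to NAP1L2 (0.92) and TSPYL4 (0.91), of the nucleosome assembly protein family, and 180 genes tested exceeded r = 0.8. For SYT1 they included CHGB (0.90), a protein of dense-core granules, and SEPTIN6 (0.90), a septin of the cytoskeleton, with 82 genes above 0.8. STMN2 was closest to SUPT16H (0.91), a subunit of a histone chaperone, PTCHD1 (0.90) and KCND2 (0.90), a potassium channel subunit, with 259 genes above 0.8. L1CAM was closest to the RNA-binding proteins CELF1 (0.91) and CELF4 (0.89) and to TIPRL (0.88), with 95 genes above 0.8.

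Such company was scarce for the other two. SLC17A7 was closest to NAB2 (0.85), a corepressor of immediate-early transcription factors, to RAP1GAP2 (0.77) and to the secreted neuropeptide precursor VGF (0.77), and 1 gene exceeded 0.8. SULT4A1 was closest to MLLT11 (0.76), the calcium channel protein ORAI2 (0.75) and the nucleotide kinase NME1 (0.74), and no gene tested exceeded 0.8. The median r over all genes tested was 0.14 for SNAP25, 0.20 for SYT1 and STMN2, 0.17 for L1CAM, 0.09 for SLC17A7 and -0.02 for SULT4A1. These likenesses are descriptions over 34 points.

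The libraries also differ in the brain region whose transcripts they carry. A regional score was computed for each as the mean log2(CPM + 0.5) of CBLN1 and CBLN3, genes of cerebellar granule cells, minus that of TBR1 and FEZF2, transcription factors of cortical projection neurons. It ranged from 2.38 to 9.49 with a median of 3.73, in log2 units. CBLN1 was 118 to 1172 CPM and TBR1 was 1.74 to 62.9 CPM. The score overlapped between diets, with medians of 3.22 in standard cholecalciferol, 3.53 in increased cholecalciferol, 5.38 in the combination and 3.61 in 25(OH)D. The libraries formed no separate clusters on it, since the largest gap between neighbours was 9.78% of the range. The libraries of file numbers 30 to 34 all lay between 5.22 and 6.51.

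Along this score STMN2 rose and SULT4A1 fell in the edgeR fit with diet and sex, and the other 4 genes did not pass the threshold. These 2 of 6 stand beside 37.7% of the 13970 genes outside the score that passed (19.4% higher and 18.4% lower), a share close to that of all genes. At an unadjusted p below 0.05 there were 4 of 6, beside 45.6% of all genes. For STMN2 the slope was 0.11 per unit of score (log2 scale, SE 0.02, edgeR adjusted p = 6.98e-05), which is 1.70-fold over the whole range (95% interval 1.38 to 2.10). For SULT4A1 it was -0.08 (SE 0.02, edgeR adjusted p = 0.000535), which is 0.678-fold over the range (interval 0.567 to 0.811). SYT1 had 0.05 (SE 0.02, edgeR adjusted p = 0.0635) and L1CAM 0.07 (SE 0.03, edgeR adjusted p = 0.0754). Without combination 1 they were 0.03 (edgeR adjusted p = 0.263) and 0.05 (0.252). SNAP25 had 0.03 (SE 0.03, edgeR adjusted p = 0.460) and SLC17A7 -0.02 (SE 0.02, edgeR adjusted p = 0.530).

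The scale of the libraries bears on these slopes. The TMM factor itself moved with the score (r = 0.72, rho = 0.69, permutation p = 9.9999e-06 for r, the smallest that 100000 resamples can give), by 0.05 log2 per unit. On total counts the slopes were therefore higher by that amount: 0.15 for STMN2 (edgeR adjusted p = 7.94e-08), 0.11 for L1CAM (0.00231) and 0.10 for SYT1 (0.000598), while SULT4A1 was at -0.03 (0.135) and SLC17A7 changed sign to 0.02 (0.436). Over all genes the median slope went from 0.00 to 0.05 and the share of calls that were higher from 51.3 to 76.4%, with 47.3% of genes called. STMN2 passed under every setting tried. SULT4A1 passed under every one except total-count scaling. With the 3 runs of file numbers in the model, SYT1 (edgeR adjusted p = 0.0498) and L1CAM (0.0387) passed as well. That called 4 of 6, beside 5371 of the 13970 genes outside the score. With the muscle list as a term SYT1 passed (edgeR adjusted p = 0.0494) and L1CAM did not (0.0559). That called 3 of 6, beside 5063 of those genes. Leaving out 1 library, SYT1 passed in 6 of 34 fits and L1CAM in 3. Without combination 1 the slope of SNAP25 was -0.01 and that of SLC17A7 -0.05.

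The values in 4 blocks of libraries, ordered by score, are CPM of total counts without diet or sex in a model. The main slopes came from TMM scaling with diet and sex. The blocks show the shape of the levels on the other scale. STMN2 had a median of 1372 CPM (1034 to 1626) in the 8 libraries with the lowest scores (2.38 to 2.98) and of 1100 CPM (943 to 1513) in the next 9. In the next 9 libraries the median was 1592 CPM (1019 to 2067), and in the 8 with the highest scores (6.51 to 9.49) it was 2288 CPM (1396 to 3202). The top block overlapped the lowest only at its lower end. SNAP25 had medians of 1603, 1242, 1244 and 1675 CPM in the same order, and the ranges of the lowest (1059 to 2311 CPM), second (369 to 1588 CPM) and top block (908 to 3008 CPM) overlapped.

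The same dip in the middle held for the medians of other members. SYT1 had medians of 865, 759, 821 and 1038 CPM, L1CAM of 52.4, 42.1, 43.2 and 63.2 CPM and SLC17A7 of 306, 289, 290 and 341 CPM. SULT4A1 had medians of 290, 235, 231 and 242 CPM, so that the step of its medians lay between the lowest-scoring block and all the rest. Its ranges overlapped, at 231 to 389, 220 to 317, 206 to 254 and 200 to 295 CPM. The mitochondrial share was 21.2 to 36.6%, 22.2 to 39.7%, 16.9 to 27.8% and 14.2 to 19.5% in these blocks, with medians of 23.3, 24.8, 20.7 and 17.4%. Its part in the shape was not tested, and the curvature was not tested either.

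**Figure D4:**
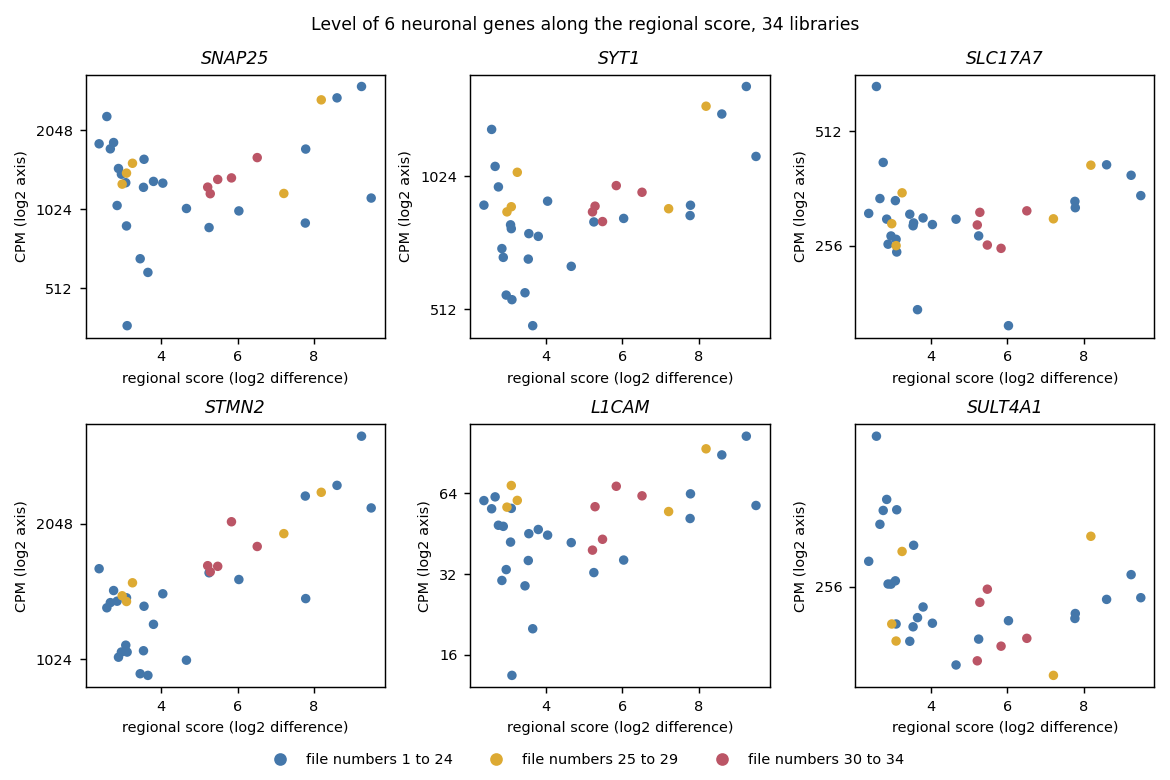
Level of each gene in CPM (log2 axis) against the regional score (log2 difference, higher towards cerebellar genes) in the 34 libraries, coloured by the running number of the file. STMN2 climbs along the score to 3202 CPM, SNAP25 is spread from 369 to 2311 CPM below a score of 4, and SULT4A1 is highest, at 389 CPM, at a low score.

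Correlations with library measures were computed over the same libraries. With the score, r was 0.79 for STMN2 (rho = 0.64, adjusted permutation p = 0.000180 over 36 relations), 0.72 without the 2 farthest libraries and 0.77 within file numbers 1 to 24. It was 0.53 for SYT1 (rho = 0.31, adjusted permutation p = 0.00571 for r), 0.41 without the 2 farthest libraries and 0.35 with TMM scaling, where it no longer passed. For L1CAM it was 0.47 (rho = 0.30, adjusted permutation p = 0.0188 for r), 0.39 without the 2 farthest libraries and 0.34 with TMM scaling, where it did not pass. By rho neither SYT1 nor L1CAM passed with the score (adjusted permutation p = 0.150 and 0.152). Without increased cholecalciferol 1, the highest library, r of L1CAM was 0.39 and did not pass. SULT4A1 had r = -0.31, which did not pass, and -0.63 with TMM scaling, which did (rho on total counts = -0.38). SNAP25 and SLC17A7 had 0.28 and 0.14.

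Markers of other cells were compared in the same way. With the mean log2 level of the oligodendrocyte list, whose summed level ran from 2571 to 15256 CPM, STMN2 had r = -0.51 (rho = -0.46, adjusted permutation p = 0.00967; -0.59 without the 2 farthest libraries, -0.47 within file numbers 1 to 24). SLC17A7 had r = -0.43 (rho = -0.28, adjusted permutation p = 0.0366 for r and 0.184 for rho), and r did not pass without increased cholecalciferol 1. With the skeletal muscle list none of the 6 genes passed by r, the lowest being SULT4A1 with -0.36 (rho = -0.44), and -0.42 with TMM scaling, which passed. SYT1 had r = -0.41 with the oligodendrocyte list (adjusted permutation p = 0.05004, just above the threshold), and -0.63 with TMM scaling, which passed. With the astrocyte list none passed on total counts, while with TMM scaling STMN2 (r = -0.55, adjusted permutation p = 0.00372) and SYT1 (r = -0.46, adjusted permutation p = 0.0237) did. With depth, as log10 total counts, none passed by r over the 34 libraries, where r was 0.24 for SYT1, 0.09 for STMN2 and 0.25 for SLC17A7. Within file numbers 1 to 24 these r were 0.51, 0.50 and 0.54. With the other neuronal genes taken as a whole, r was 0.82 for SYT1, 0.69 for STMN2, 0.63 for SNAP25, 0.62 for L1CAM, 0.55 for SLC17A7 and 0.33 for SULT4A1, the last of which did not pass. These depend on scale: with TMM scaling r was 0.26 for SNAP25, 0.23 for STMN2 and 0.17 for L1CAM, none of which passed, and 0.57 for SULT4A1, which did. On that scaling the largest gap between neighbouring libraries was 39.9% of the range, above the limit of 25% for separate clusters. The r within clusters was not computed. Without the 2 farthest libraries r was 0.33, 0.11, 0.22 and 0.53 for these genes in the same order.

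The closest relatives of the 6 genes show how far these levels are those of a family. SNAP23, SNAP29 and SNAP47, the widely expressed relatives of SNAP25, had means of 13.3, 17.0 and 17.9 CPM and no slope on the score past the threshold. Of 13 other synaptotagmins, 11 were tested: SYT4 (slope 0.12, mean 253 CPM), SYT9 (0.34, 16.1 CPM) and SYT12 (0.07, 107 CPM) were higher along the score, and SYT6 (-0.39, 16.6 CPM), SYT13 (-0.15, 80.7 CPM) and SYT17 (-0.47, 26.8 CPM) were lower. SYT2, SYT3, SYT7, SYT10 and SYT11 did not pass, and SYT11 was the most abundant relative, at 330 CPM. SYT5 had no count in any library and SYT16 was under the filter. On total counts SNAP29, SNAP47, SYT3 and SYT7 passed as higher, and the other calls of these 2 families were as with TMM. SYT1 was the most abundant synaptotagmin of those measured.

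The stathmins split. STMN3 rose along the score like STMN2 (slope 0.10, mean 187 CPM), while STMN1 (-0.11, 463 CPM) and STMN4 (-0.08, 151 CPM) fell. SLC17A6 (VGLUT2), the glutamate carrier of subcortical neurons, had 11.8 ± 7.36 CPM and fell along the score (-0.21), and SLC17A5, a lysosomal sialic acid carrier, had 9.62 CPM and did not pass (0.04). Of the L1 family CHL1 rose (0.16, 183 CPM), NRCAM fell (-0.10, 128 CPM) and NFASC did not pass (-0.04, 170 CPM), all 3 of them more abundant than L1CAM. Of 6 measured sulfotransferases related to SULT4A1 only SULT1E1, an oestrogen sulfotransferase, passed the filter on low counts, at 1.32 CPM with a slope of -0.45. On total counts STMN4 did not pass (-0.04), and the calls of the others named here were as with TMM.

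Other neuronal genes were grouped by role into 8 lists holding 101 genes, of which 85 were tested. None was called between any 2 diets. On the score 18 rose, 30 fell and 37 did not pass, with a median slope of -0.02, beside 0.00 over all genes. Of all genes 19.4% rose and 18.4% fell. The counts of the lists depend on the scaling: on total counts 32 rose, 15 fell and 38 did not pass. Of all 13970 genes outside the score, 5050 rose and 1560 fell on total counts. No listed gene was called in opposite directions by both. The counts that follow are those with TMM. Among 12 genes of SNARE complexes and fusion, 2 rose and 3 fell: DOC2B, a calcium sensor of vesicle release, had the steepest rise (0.34, SE 0.02) and the syntaxin STX1A the steepest fall (-0.44, SE 0.03). The abundant CPLX2 (615 CPM, slope 0.01) did not pass, like SNAP25. Of 13 synaptic vesicle genes 2 rose, SYN2 (0.05, 548 CPM) and SV2A (0.10, 217 CPM), and 5 fell, SYNGR3 most (-0.17).

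Vesicle recycling had 4 of 9 genes higher, among them the clathrin light chain CLTA (0.07, 343 CPM) and the endophilin SH3GL2 (0.14), and 2 lower, with BIN1 at -0.08. SNAP91, a clathrin adaptor at 337 CPM, had 0.04 and did not pass. At the active zone, where vesicles dock, 1 of 8 genes rose (RIMS1, 0.13) and 4 fell, among them RIMS2 (-0.07) and ERC2 (-0.19). Of the 13 genes of the axonal cytoskeleton, the group to which STMN2 is nearest by function, none rose and 6 fell, with the kinesin KIF5A lowest (-0.31). MAP1B (1219 CPM, slope -0.05), KIF5C (938 CPM, slope -0.03) and CRMP1 (slope 0.03) did not pass.

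Adhesion genes, the role of L1CAM, had 5 of 13 higher and 4 lower. CHL1 had the steepest rise and CNTNAP1, a protein of myelinated axons, the steepest fall (-0.18), while NCAM1 fell (-0.08, 776 CPM). Neuronal enzymes and RNA-binding proteins had 3 of 11 higher and 4 lower, with the granule proteins CHGB at 0.18 and CHGA at -0.46 as the extremes. UCHL1 fell (-0.07, 763 CPM) and ENO2 did not pass (0.03, 828.5 CPM). Transporters and enzymes of transmitters had 1 of 6 higher, the inhibitory vesicle carrier SLC32A1 (0.08), and 2 lower, among them SLC17A6. SLC18A2 had 0.10 and did not pass. On total counts, among others, BIN1, RIMS2, NCAM1 and UCHL1 no longer passed as lower, and CPLX2, SNAP91, CRMP1 and ENO2 passed as higher.

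**Figure D5:**
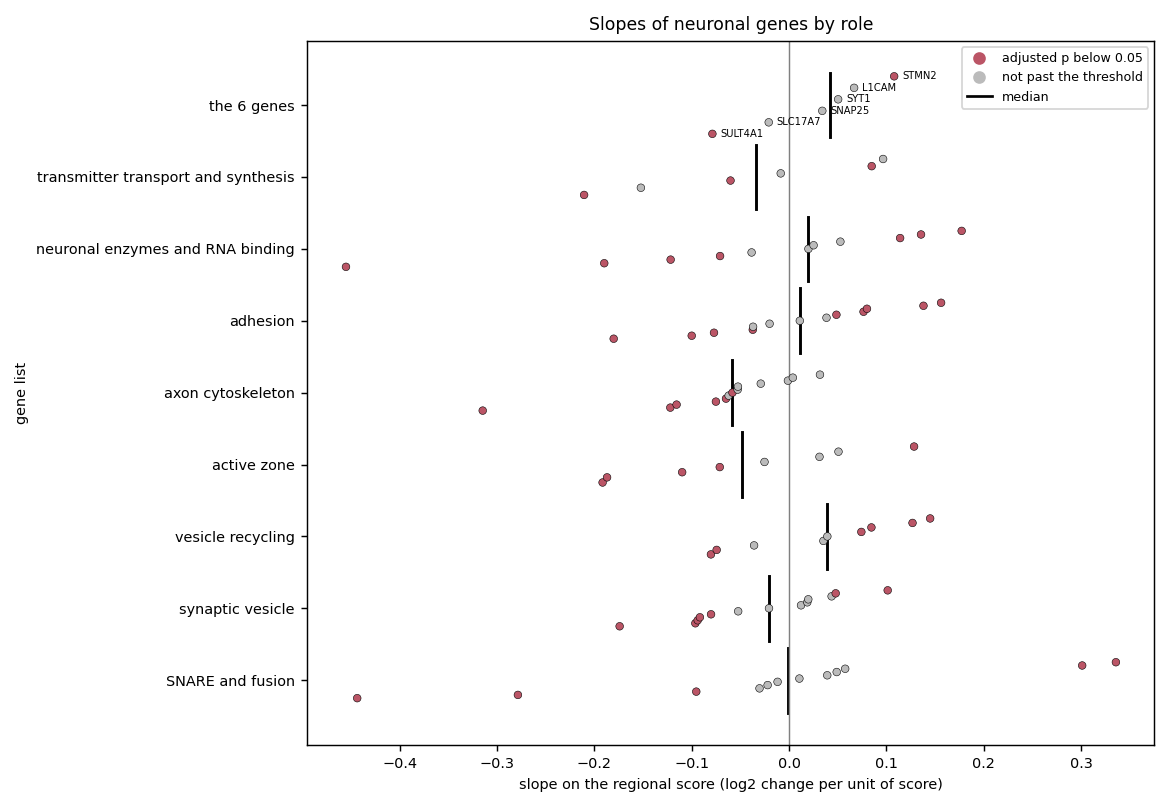
Slope on the regional score (log2 change per unit of score) of each tested gene in 8 lists of neuronal genes by role and of the 6 genes themselves, with red for an adjusted p below 0.05, grey for the others and a black line at the median of each list. The slopes of the 6 genes run from -0.08 to 0.11, inside the range of -0.46 to 0.34 of the other neuronal genes.

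Markers of cells and regions give the scale of the same axis. On the score 11 of 11 tested cerebellar genes rose and 9 of 10 forebrain genes fell, with median slopes of 0.43 and -0.47, where the score itself was built from 2 genes of each list, so that these counts describe the axis. Of the oligodendrocyte markers 7 of 9 fell (median -0.15) and of the microglial markers 8 of 9 (median -0.18), beside 18.4% of all genes. On total counts 4 and 7 of them fell, beside 1560 of 13970 genes. Of the skeletal muscle markers 2 of 14 rose and none fell (median 0.02). The part of these cells in the slopes of STMN2 and SULT4A1 was not tested. With the muscle list as a term, the slopes were 0.11 and -0.07, both past the threshold (edgeR adjusted p = 5.77e-05 and 0.00192).

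Overlapping genes can share reads. In the RefSeq annotation of Sscrofa11.1, used here only for names and order along the chromosome, SYT1 overlaps the long non-coding RNA LOC110260829 and STMN2 overlaps LOC110260269. Neither is measured under its symbol in the files, and no source used here says whether counting used strand, so that reads of SYT1 and STMN2 cannot be told apart from those of these RNAs. None of the other 4 genes overlaps an annotated gene there.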

How the data were processed

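RNA from tissue labelled muscle was sequenced with a QuantSeq 3′ forward kit, per the labels' protocols. The authors used FastQC, TopHat, HTSeq and DESeq2, per the submitters' processing notes, and deposited the counts of reads per gene without normalization. Versions, genome build, annotation and strand setting are not given in the sources used. HTSeq's 5 summary lines per file were left out (16.4 to 29.9% of reads lay outside features and 11.2 to 20.7% aligned to several places). Symbols came from a table that matched 15029 of 31907 identifiers.

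Diet and sex came from the labels, and no files were identical. The counts were fitted in edgeR 4.0.16 (R 4.3.3; TMM scaling, filterByExpr by diet, quasi-likelihood F-test, model of diet and sex, all 34 libraries), two-sided, with Benjamini-Hochberg adjustment over 13974 genes. The score fit adds the score as a covariate. SEs were derived from the F statistic. Correlations used log2(CPM + 0.5) with two-sided permutation p-values from 100000 resamples, adjusted over 36 relations with 6 measures or over 15 pairs. Where r and rho stand together with a single p-value, it is that of r. DESeq2 1.42.0 and limma 3.58.1 (voom) were alternatives. Total-count scaling, TMM-scaled pairs, pairs with a pseudocount of 1, a depth term and the mitochondrial share were added after seeing the data. So were the correlations with library measures without increased cholecalciferol 1. Scripts were tested on simulated data. Depth (1.34 to 30.4 M counts) sets the counting error, which is small beside the spread between animals for all 6 genes.

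The named genes are the 6 genes, all tested relatives, the 2 most abundant and the 2 steepest genes of each role list, the 3 most alike genes per member and the marker checks. Some items that this rule names are left out of the text. SYT5 and SYT16 were added after their values were seen. The genes, lists and tests were chosen with earlier results of these data known. Sequences were not used here.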

Additional observations from a re-analysis of the deposited data

Results flagged for a closer look

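Within each diet the highest and lowest library were compared with the nearest other one by Dixon's test, over 24 groups of 6 genes and 4 diets. Chance flags about 1 in 20 groups, and 5 were flagged. The groups are not independent, since the 6 genes share libraries and several vary together. The test was run on CPM without log, so 5 cannot be set against that rate as an excess. In the combination, combination 1 stood above the rest for SNAP25 (2722 CPM) and SYT1 (1416 CPM). In increased cholecalciferol, library 1 stood above the rest for STMN2 (3202 CPM) and L1CAM (104.5 CPM), and library 7 for SLC17A7 (672 CPM). The regional scores of combination 1 and increased cholecalciferol 1 were 8.60 and 9.24, and that of increased cholecalciferol 7 was 2.58. No lowest library and no library of the standard cholecalciferol or 25(OH)D groups was far enough from the rest.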

How the results depend on the processing

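Over all alternatives tried, and with each of the 34 libraries left out in turn, none of the 6 genes was called in a comparison of diets or of the sexes. The count called on the score was 2, went to 3 with the muscle list in the model and on total counts and to 4 with the 3 runs of file numbers, and ranged from 2 to 4 over the left-out libraries (4 without combination replicate 4). STMN2 and SULT4A1 passed in all 34 of those fits. Over all genes outside the score, 5272 were called in the main fit and 5063 with the muscle list. On total counts the number was 6610, and with the runs 5371. In the main fit this was 37.7% of those genes. The numbers over all genes with a library left out are not given here. The range of 2 to 4 is therefore not set against a background. SLC17A7 on the score was 0.024 on total counts. The causes were not tested.

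The values that changed sign were small and uncalled (log2 differences). For increased against standard cholecalciferol, STMN2 was 0.054 in file numbers 1 to 24, 0.012 with runs and 0.019 with the score in the model, and SULT4A1 was 0.083 with the muscle list and 0.029 on total counts. For the combination against standard, SYT1 was -0.0063 with no filter, -0.017 with the score and -0.015 without sex. For 25(OH)D against standard, STMN2 was 0.027 in file numbers 1 to 24 and 0.012 with depth, and SULT4A1 was -0.028 in file numbers 1 to 24, -0.051 on total counts and -0.011 with the score. For the combination against increased cholecalciferol, SNAP25, SYT1 and L1CAM were 0.19, 0.096 and 0.16 without file numbers 30 to 34, 0.22, 0.14 and 0.078 in file numbers 1 to 24, and 0.070, 0.11 and 0.16 with depth; SNAP25 and SYT1 were 0.023 and 0.018 with runs. For 25(OH)D against increased, STMN2 was 0.039 with depth and SULT4A1 -0.080 on total counts. For 25(OH)D against the combination, SLC17A7 was -0.038 without file numbers 30 to 34, -0.027 in file numbers 1 to 24 and -0.065 on total counts.

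Leaving out 1 library gave these ranges. Increased against standard: SYT1 -0.015 to 0.12, SLC17A7 -0.011 to 0.16, L1CAM -0.011 to 0.15 and SULT4A1 -0.079 to 0.051. Combination against standard: SNAP25 -0.14 to 0.17, SYT1 -0.11 to 0.067, STMN2 -0.038 to 0.15 and L1CAM -0.090 to 0.12. 25(OH)D against standard: SULT4A1 -0.089 to 0.097. Combination against increased: SYT1 -0.17 to 0.018 and L1CAM -0.17 to 0.057. 25(OH)D against increased: STMN2 -0.15 to 0.082 and SULT4A1 -0.072 to 0.10. 25(OH)D against the combination: SLC17A7 -0.042 to 0.16. On the score: SNAP25 -0.0051 to 0.055.

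With TMM-scaled CPM, r changed sign for SLC17A7 with the score (-0.15), for SNAP25, SYT1, STMN2 and L1CAM with the muscle list (-0.15, -0.18, -0.067 and -0.14), and for L1CAM and SULT4A1 with the astrocyte list (-0.34 and 0.024). With a pseudocount of 1, r of SNAP25 with the astrocyte list was 0.010. Without increased cholecalciferol replicate 1 it was 0.041, that of SYT1 was 0.0067 and that of SLC17A7 with the muscle list was 0.0077. No paired analysis was possible because the replicate numbers are in accession order and the labels pair no animals. Depth limits L1CAM most, with 65 reads at the lowest.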
